A study of Oryza sativa Japonica Group with 10 samples.

Results

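The genes described are 5 members of the lignin pathway of rice: PAL (LOC4330034), Os4CL3 (LOC4328485), OsCAD8C (LOC9269515) and the laccases LAC3 (LOC4327522) and LAC7 (LOC4324802). They were taken by symbol, synonym or gene ID, with every probe set that the platform annotation ties to that single gene. This gave 10 probe sets of the 57381 on the array, and 5 genes of the 17905 that have such a probe set. PAL has 5 of the 10, OsCAD8C has 2, and the other genes have 1 each. Probe sets of a gene are numbered from the brightest by mean log2 signal, as PAL 1 to PAL 5 and OsCAD8C 1 and OsCAD8C 2.

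Lignin is made from phenylalanine. Phenylalanine ammonia-lyase (PAL) opens the phenylpropanoid pathway by forming cinnamate, 4-coumarate:CoA ligase (4CL) turns hydroxycinnamates into CoA esters, and cinnamyl alcohol dehydrogenase (CAD) reduces the aldehydes to monolignols. Laccases are copper-containing oxidases of the cell wall that oxidise monolignols, which then join into the polymer. In roots lignin is a part of the xylem walls and of the Casparian strip, the barrier of the endodermis.

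RNA of one-week-old seedlings of Oryza sativa japonica cultivar Zhonghua 10 was hybridised to Affymetrix rice arrays. Seedlings had spent 6, 24, 48 or 72 h in low phosphate, or were grown with sufficient phosphate as the control, and each of the 5 groups had 2 arrays that the labels call biological replicates. The sources used here do not give the control's harvest time or the number of seedlings per sample. No group with sufficient phosphate is given after 6, 24, 48 or 72 h, so an effect of low phosphate cannot be told apart from one of seedling age or time of day.

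Median signals of the arrays lay between 47.6 and 69.3, and those of the 72 h arrays were the highest. On the log2 scale, the array medians of low phosphate minus control were 0.03 after 6 h, 0.10 after 24 h, -0.01 after 48 h and 0.50 after 72 h. For rice control genes, 6 pairs of probe sets at the 3′ and 5′ ends gave a median change in the log2 ratio of 3′ to 5′ signal of 0.99 after 6 h, 0.05 after 24 h, 0.30 after 48 h and 2.82 after 72 h. The 12 pairs for bacterial transcripts gave medians of 0.72, -0.35, 0.14 and 2.21. For the 12 pairs of hybridisation controls the medians stayed between -0.04 and 0.05, and single pairs changed by -0.68 to 0.42. The summed signal of 6 root markers was 40664 and 41204 after 72 h against 28330 and 29166 in the control. Of these 6, 5 rose after 72 h, and the change of CASP1 did not pass (-0.50, adjusted p = 0.204). After 24 h the sum was 28730 and 28793, while 3 of the root markers rose and 1 fell. At that time LSI1 fell by 1.26 on the log2 scale, and LSI6, HKT1;5 and PIP2;5 rose by 3.04, 3.25 and 6.28. For 5 leaf and shoot markers the sum was 71534 and 71895 in the control. It was 54675 and 55543 after 24 h, and 57280 and 59433 after 72 h. Of the 4 leaf and shoot markers tested, 3 rose and 1 fell after 24 h, and 2 rose and 2 fell after 72 h. On the log2 scale, CAB2R fell by 3.22 after 24 h, while RBCS, PSAG and RCA rose by 0.40, 1.91 and 0.65. The sum of 7 seed markers was 1534 to 3111 in low phosphate against 5842 and 6258 in the control. Only 3 of these 7 were bright enough to be tested. Of the 3, the amylase gene AMY3D fell by 5.16 after 6 h and fell by 2.27 after 72 h on the log2 scale, while after 72 h the change of GLUA2 did not pass (-0.16, adjusted p = 0.0953) and WX rose by 1.28 (adjusted p = 0.0354). The part that these shifts have in the results was not tested, and in bulk RNA of seedlings fewer cells of a type and less RNA per cell cannot be told apart.

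Each change is the mean log2 signal in low phosphate minus that in the control, ± SE (n = 2 arrays in each group), from limma fitted to all 10 arrays, and adjusted p is Benjamini-Hochberg over the 34355 probe sets tested. A change passed at adjusted p under 0.05. All 10 probe sets of the 5 genes were bright enough to be tested. After 6 h in low phosphate 0 of the 10 rose and 4 fell, where 36.2% of all probe sets tested passed (19% higher, 17.2% lower). After 24 h 3 rose and 3 fell, where 39.8% of all passed (20.6% higher, 19.2% lower). After 48 h 1 rose and 5 fell, where 31.9% passed (19.4% higher, 12.5% lower). After 72 h 0 rose and 4 fell, where 39.4% passed (21.9% higher, 17.6% lower). Over all 5 groups the F-test called 8 of the 10, where it called 61.4% of all. The counts of 4 of 10 after 6 and 72 h lie near their backgrounds. Those of 6 of 10 after 24 and 48 h lie above theirs, most of all the 5 falls after 48 h against 12.5%. But 3 of these 5 are PAL probe sets, which are not independent of each other. The 5 genes were also chosen with earlier results of these data known, so a count above its background is a description only. The median change of the 10 was -0.17, 0.07, -0.07 and -0.22 after 6, 24, 48 and 72 h, where that of all probe sets tested was 0.04, 0.04, 0.11 and 0.16.

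**Figure D1:**
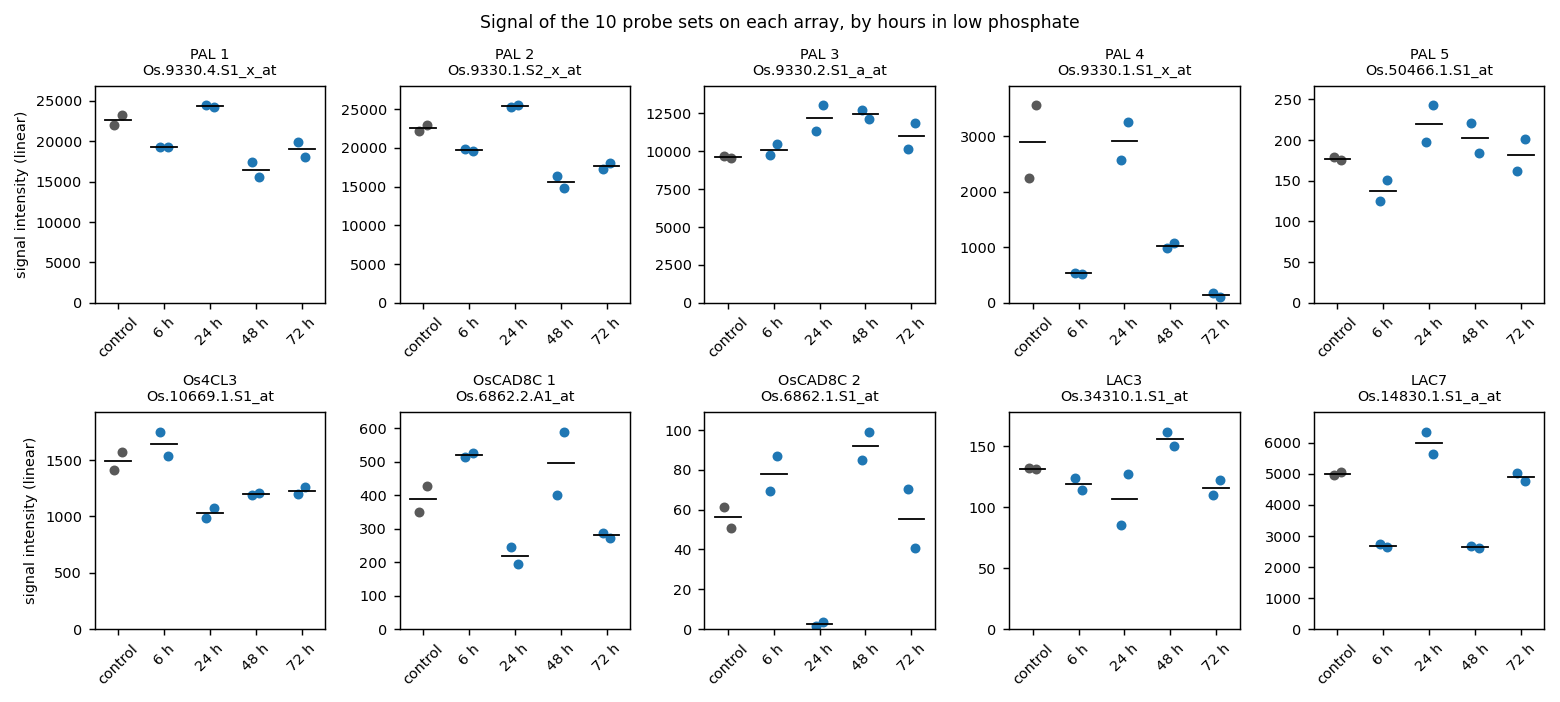
Signal intensity (linear scale from 0) of the 10 probe sets on each array. Columns of points are the control and the seedlings after 6, 24, 48 and 72 h in low phosphate, each point is 1 array, and lines are group means. LAC7 lies between 2617 and 2744 after 6 and 48 h, against 4960 and 5062 in the control, and PAL 4 is at 167 and 99.9 after 72 h.

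PAL, the entry enzyme, had no single value, since its 5 probe sets disagreed. After 72 h 1 of them fell to 0.0458 of the control, 2 fell by 0.25 and 0.35 on the log2 scale, and the changes of the other 2 did not pass. In rice PAL is a small gene family, and 2 genes of the gene table lie between PAL and the family member PAL06. Affymetrix gives the suffix _x_at to a probe set with probes that can match other transcripts and _a_at to one that covers several transcripts of the same gene, so PAL 1, PAL 2 and PAL 4, all named _x_at, may take up signal of related transcripts, while PAL 3 is named _a_at.

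The brightest probe set, PAL 1, had signals of 21957 and 23231 in the control, 19265 and 19290 after 6 h, 24434 and 24181 after 24 h, 17392 and 15544 after 48 h, and 19934 and 18052 after 72 h in low phosphate. All arrays of 6, 48 and 72 h lay below both control arrays, and those of 24 h lay above. It fell by 0.23 ± 0.06 after 6 h (adjusted p = 0.00926), by 0.46 ± 0.06 after 48 h (adjusted p = 9.43e-05) and by 0.25 ± 0.06 after 72 h (adjusted p = 0.00509), and its change of 0.11 ± 0.06 after 24 h did not pass (adjusted p = 0.189). With quantile normalization none of these falls passed: the change was 0.02 after 6 h, of opposite sign (adjusted p = 0.786), -0.06 after 48 h (adjusted p = 0.474) and -0.0043 after 72 h (adjusted p = 0.96). The change after 24 h then passed as a rise of 0.26 (adjusted p = 0.00261). With no intensity trend the falls after 6 and 72 h did not pass (adjusted p = 0.111 and 0.0782). Leaving out the second control array ended the calls after 6 h (adjusted p = 0.0874) and 72 h (adjusted p = 0.0536), and so did leaving out the first 6 h array (adjusted p = 0.0505) or the second 72 h array (adjusted p = 0.0597).

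A second bright probe set, PAL 2, had 22162 and 22908 in the control, 19862 and 19581 after 6 h, 25279 and 25473 after 24 h, 16326 and 14868 after 48 h, and 17219 and 18073 after 72 h. Its order of levels was 24 h, control, 6 h, 72 h, 48 h, with no overlap between neighbours. Its changes of -0.19 after 6 h (adjusted p = 0.00745; 0.06 with quantile normalization), 0.17 after 24 h (adjusted p = 0.0129), -0.53 after 48 h (adjusted p = 5.42e-06) and -0.35 after 72 h (adjusted p = 0.000105) all passed, each with an SE of 0.05. With quantile normalization the change after 72 h was -0.0983 (adjusted p = 0.0919), and with arrays centred on their medians that after 24 h was 0.07 (adjusted p = 0.425). With no intensity trend the calls after 6 and 24 h ended (adjusted p = 0.115 and 0.143). The call after 6 h also ended without the second control array (-0.17) or the second 6 h array (-0.18), and that after 24 h without the first control array (0.15). The fall after 48 h stayed called under each alternative other than the 2-fold rule of the series text. Over the 10 arrays its log2 signal correlated with that of PAL 1 at r = 0.958, a description only, since both may read the same transcripts.

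PAL 3 moved the other way. Its signals were 9711 and 9587 in the control, 9734 and 10495 after 6 h, 11320 and 13030 after 24 h, 12726 and 12151 after 48 h, and 10154 and 11843 after 72 h. Every array in low phosphate lay above both control arrays. It rose by 0.33 ± 0.08 after 24 h (adjusted p = 0.00462) and by 0.37 ± 0.08 after 48 h (adjusted p = 0.00341), and the changes of 0.07 after 6 h (adjusted p = 0.569) and 0.18 ± 0.08 after 72 h (adjusted p = 0.0817) did not pass. Both rises ended with no intensity trend (adjusted p = 0.0648 and 0.0598). After 72 h the scaling set the direction: with each array centred on its median the change was -0.31 (adjusted p = 0.00511), and with quantile normalization it was 0.29 (adjusted p = 0.0104). Leaving out the first 72 h array gave 0.30 (adjusted p = 0.0178).

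The dimmest, PAL 5, had 179 and 175 in the control, 125 and 150 after 6 h, 197 and 243 after 24 h, 221 and 184 after 48 h, and 162 and 201 after 72 h. None of its changes from the control passed, with values between -0.37 ± 0.22 after 6 h and 0.31 ± 0.22 after 24 h. After 72 h its change was 0.03, with a 95% confidence interval of -0.46 to 0.51.

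PAL 4 stood apart. Its signals were 2236 and 3550 in the control, 538 and 526 after 6 h, 2577 and 3249 after 24 h, 984 and 1066 after 48 h, and 167 and 99.9 after 72 h in low phosphate. The arrays of 6, 48 and 72 h lay below both control arrays, those of 24 h between them. It fell by 2.40 ± 0.23 after 6 h (adjusted p = 6.26e-06), by 1.46 ± 0.23 after 48 h (adjusted p = 0.000488) and by 4.45 ± 0.23 after 72 h (adjusted p = 4.67e-08), and the change of 0.04 after 24 h did not pass (adjusted p = 0.921). After 72 h its geometric mean was 0.0458 of the control's. The order of its levels was 24 h, control, 48 h, 6 h and 72 h, and the step from 24 h to the control was the only one that did not pass (adjusted p = 0.921). The falls after 6, 48 and 72 h stayed called under every alternative run, the 2-fold rule included.

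**Figure D2:**
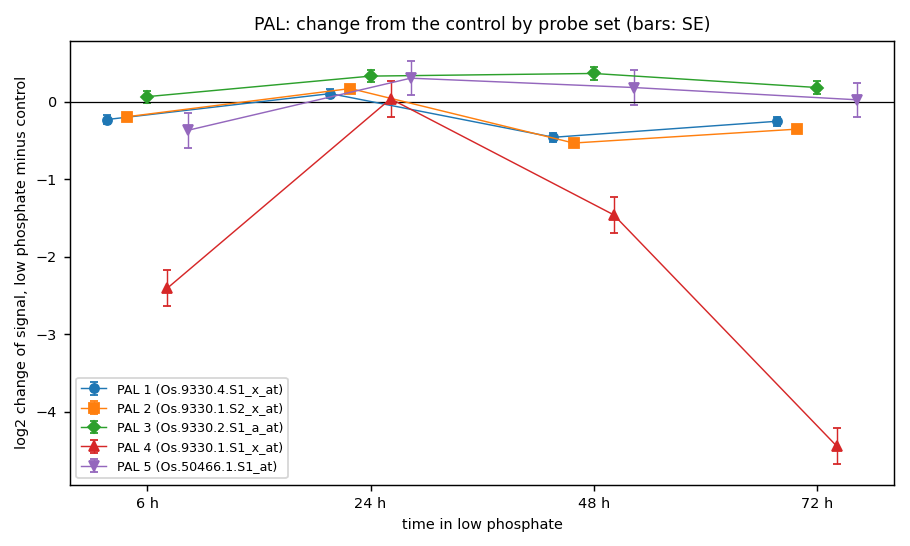
Log2 change of signal, low phosphate minus control, for the 5 PAL probe sets after 6, 24, 48 and 72 h; bars are SE from the fit, n = 2 arrays per group. PAL 4 is at -2.40, 0.04, -1.46 and -4.45, while the other 4 lie between -0.53 and 0.37.

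Whether the PAL probe sets differ after 72 h was tested on the difference in log2 signal from PAL 1 on each array, fitted together with the 3154 such differences of all genes with several tested probe sets. Relative to that probe set, PAL 4 changed by -4.20 ± 0.24 (adjusted p = 4.59e-06), and PAL 3 by 0.44 ± 0.12 (adjusted p = 0.0238). The difference of -0.10 ± 0.07 for PAL 2 (adjusted p = 0.282) and that of 0.28 ± 0.18 for PAL 5 (adjusted p = 0.277) did not pass. Among all such differences 30.8% passed after 72 h, against 11.8% after 6 h, 20.4% after 24 h and 6.94% after 48 h, so disagreement between probe sets of a gene was common after 72 h. The call for PAL 3 ended under 6 alternatives, among them each control array left out (adjusted p = 0.0564 and 0.115), the second 72 h array left out (adjusted p = 0.119) and quantile normalization (adjusted p = 0.0906).

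The same test at the other times gave -2.18 ± 0.24 after 6 h (adjusted p = 0.000723), -0.07 after 24 h (adjusted p = 0.884) and -1.0 ± 0.24 after 48 h (adjusted p = 0.0419) for PAL 4. The call after 48 h ended under 10 alternatives: without the second control array (-0.71, adjusted p = 0.216), without either array of 6, 24 or 48 h (adjusted p between 0.0502 and 0.221), with no intensity trend (0.132), with only the 2 groups (0.068) and with the replicate block (0.0574). For PAL 3 the differences from PAL 1 were 0.30, 0.23, 0.82 and 0.44 after 6, 24, 48 and 72 h. For PAL 5 they were -0.14, 0.20, 0.64 and 0.28, and for both they were largest after 48 h. That of PAL 3 after 48 h passed (adjusted p = 0.00641), but not with no intensity trend (adjusted p = 0.0541) or without the second 48 h array (a difference of 0.78). For PAL 2 the differences were 0.04, 0.07, -0.07 and -0.10. The rice 3′ to 5′ pairs changed by a median of 0.99, 0.05, 0.30 and 2.82 at these times. Where the PAL probe sets lie on the transcript was not used here, and the part of the 3′ to 5′ shift in the disagreement was not tested. The mean over all 5 PAL probe sets changed by -0.97 ± 0.07 after 72 h (adjusted p = 8.2e-07), against -0.25 for the brightest alone, so the value given for PAL after 72 h depends on the probe set.

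**Figure D3:**
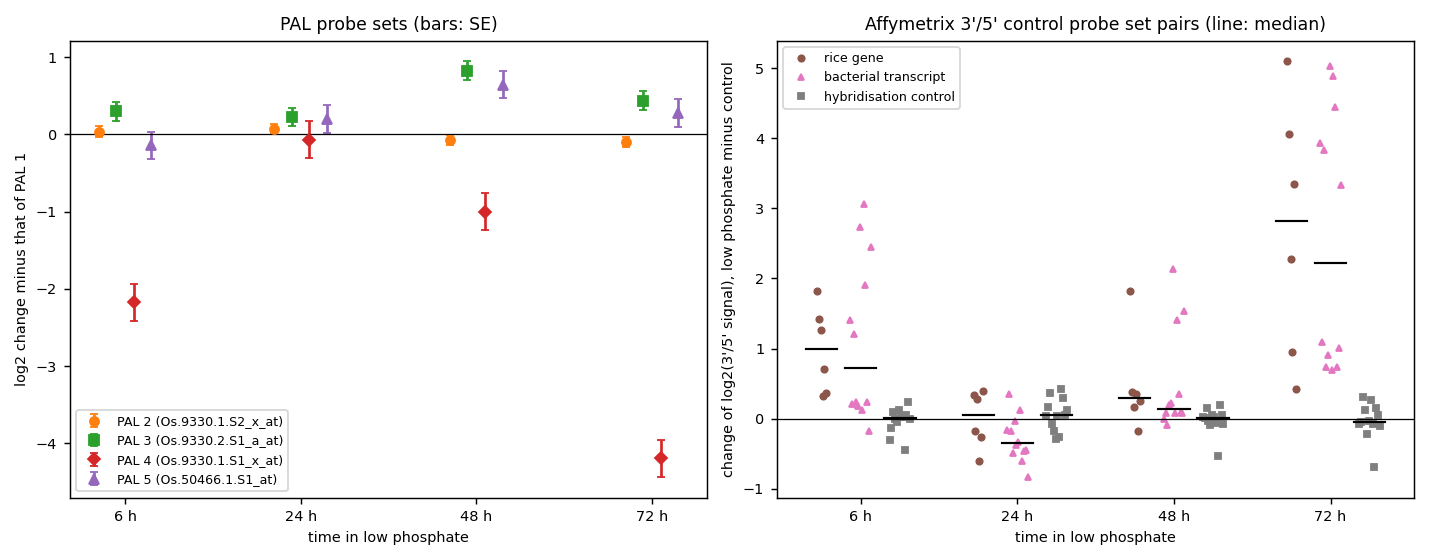
Left, log2 change of 4 PAL probe sets minus that of PAL 1 after 6, 24, 48 and 72 h in low phosphate (bars, SE). Right, change from the control in log2 ratio of 3′ to 5′ signal for 6 rice, 12 bacterial and 12 hybridisation control pairs of probe sets (points, pairs; lines, medians). PAL 4 lies at -2.18, -0.07, -1.0 and -4.20, and the rice medians at 0.99, 0.05, 0.30 and 2.82.

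Os4CL3, a ligase that makes the CoA esters, was lower from 24 h on by 0.28 to 0.53 on the log2 scale. Its signals were 1411 and 1574 in the control, 1752 and 1538 after 6 h, 990 and 1077 after 24 h, 1188 and 1207 after 48 h, and 1198 and 1258 after 72 h. The arrays of 24, 48 and 72 h all lay below both control arrays, and those of 6 h overlapped with them. It fell by 0.53 ± 0.09 after 24 h (adjusted p = 0.000455), by 0.32 ± 0.09 after 48 h (adjusted p = 0.0178) and by 0.28 ± 0.09 after 72 h (adjusted p = 0.0267), and the change of 0.14 ± 0.09 after 6 h did not pass (adjusted p = 0.268). The fall after 24 h stayed called under each alternative other than the 2-fold rule. The falls after 48 and 72 h ended without the second control array (adjusted p = 0.145 and 0.186), without either array of their own time, and with no intensity trend (adjusted p = 0.0696 and 0.0802).

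Between times in low phosphate, the Os4CL3 level of 24 h minus that of 6 h was -0.67 ± 0.09 (adjusted p = 7.07e-05). In the order 6 h, control, 72 h, 48 h, 24 h, only the step between control and 72 h passed (adjusted p = 0.0267). After 72 h it was 0.25 ± 0.09 higher than after 24 h (adjusted p = 0.0411), but -0.15 (adjusted p = 0.248) with arrays centred on their medians. That call also ended with no filter (adjusted p = 0.0619), with no intensity trend (0.103) and with only the 2 groups (0.0809). Leaving out the first 24 h array (a difference of 0.19), either 72 h array (0.28 and 0.21) or either 48 h array ended it as well.

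OsCAD8C, annotated to the enzyme family that makes monolignols, was lowest after 24 h in both of its probe sets. In the gene table it stands in a run of neighbours with OsCAD8A, OsCAD8B and OsCAD8D. Its brighter probe set, OsCAD8C 1, had 350 and 427 in the control, 516 and 526 after 6 h, 245 and 195 after 24 h, 401 and 590 after 48 h, and 288 and 271 after 72 h. The arrays of 24 and 72 h lay below both control arrays and those of 6 h above, while 48 h overlapped with the control. It fell by 0.82 ± 0.19 after 24 h (adjusted p = 0.00462). The changes of 0.43 ± 0.19 after 6 h (adjusted p = 0.109), 0.33 ± 0.19 after 48 h (adjusted p = 0.231) and -0.47 ± 0.19 after 72 h (adjusted p = 0.0767) did not pass. After 72 h it passed with arrays centred on their medians (-0.97, adjusted p = 0.00154) and without the first 48 h array (adjusted p = 0.0492).

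The dimmer probe set, OsCAD8C 2, had 61.6 and 51.0 in the control, 69.5 and 86.8 after 6 h, 1.5 and 3.3 after 24 h, 85 and 99.2 after 48 h, and 70.4 and 40.6 after 72 h. Both 24 h arrays lay far below the 8 others and under the filter level, a signal of 23.9. Against that level the fall after 24 h was at least 1.23 on the log2 scale (adjusted p = 0.000173 in the fit), and it no longer passed when the fit held only the 24 h and control arrays (adjusted p = 0.0852). After 6, 48 and 72 h its changes lay between -0.07 and 0.71, with an SE of 0.70, and did not pass. Its fitted change after 24 h minus that of OsCAD8C 1 was -3.83 ± 0.57 (adjusted p = 0.00244, where 20.4% of such differences passed), a size that rests on signals under the filter level.

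Within low phosphate, the level of OsCAD8C 1 after 24 h minus that after 6 h was -1.25 ± 0.19 (adjusted p = 0.000223), and it was 1.15 ± 0.19 higher after 48 h than after 24 h (adjusted p = 0.000506). Its level after 72 h minus that after 48 h was -0.80 ± 0.19 (adjusted p = 0.00781), a call that ended without the second 48 h array (-0.52). None of the 4 steps between neighbours in its order 6 h, 48 h, control, 72 h, 24 h passed.

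LAC7 alternated between a lower and a higher level. Its signals were 4960 and 5062 in the control, 2744 and 2639 after 6 h, 6362 and 5646 after 24 h, 2692 and 2617 after 48 h, and 5028 and 4760 after 72 h in low phosphate. The arrays of 6 and 48 h lay far below both control arrays, those of 24 h above, and those of 72 h overlapped with them. It fell by 0.90 ± 0.06 after 6 h (adjusted p = 4.5e-07) and by 0.92 ± 0.06 after 48 h (adjusted p = 6.22e-07), to 0.537 and 0.530 of the control's geometric mean. It rose by 0.26 ± 0.06 after 24 h (adjusted p = 0.00611), and the change of -0.03 ± 0.06 after 72 h did not pass (adjusted p = 0.701).

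The falls of LAC7 after 6 and 48 h stayed called under each alternative other than the 2-fold rule, which they missed. The rise after 24 h ended without the first 24 h array (adjusted p = 0.0502), with no intensity trend (adjusted p = 0.0601) and with arrays centred on their medians (adjusted p = 0.18), and with that centring LAC7 fell by 0.53 after 72 h (adjusted p = 0.00019). Between times, LAC7 was 1.16 ± 0.06 higher after 24 h than after 6 h (adjusted p = 3.9e-08), and its level after 48 h minus that after 24 h was -1.18 ± 0.06 (adjusted p = 3.97e-08). It was 0.88 ± 0.06 higher after 72 h than after 48 h (adjusted p = 9.49e-07). The levels of 6 and 48 h did not differ beyond their spread (-0.02, adjusted p = 0.868), nor did those of 72 h and the control.

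LAC3 showed no change that passed at any time. Its signals were 132 and 131 in the control, 124 and 114 after 6 h, 85.1 and 128 after 24 h, 162 and 150 after 48 h, and 110 and 122 after 72 h. The 48 h arrays were the highest and lay above both control arrays, and those of 6, 24 and 72 h lay below. The changes from the control were -0.15 after 6 h, -0.34 after 24 h, 0.24 after 48 h and -0.18 after 72 h, each with an SE of 0.27 (adjusted p between 0.379 and 0.734), and none of the 6 pairs of low-phosphate times passed either. After 72 h the 95% confidence interval was -0.79 to 0.42.

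**Figure D4:**
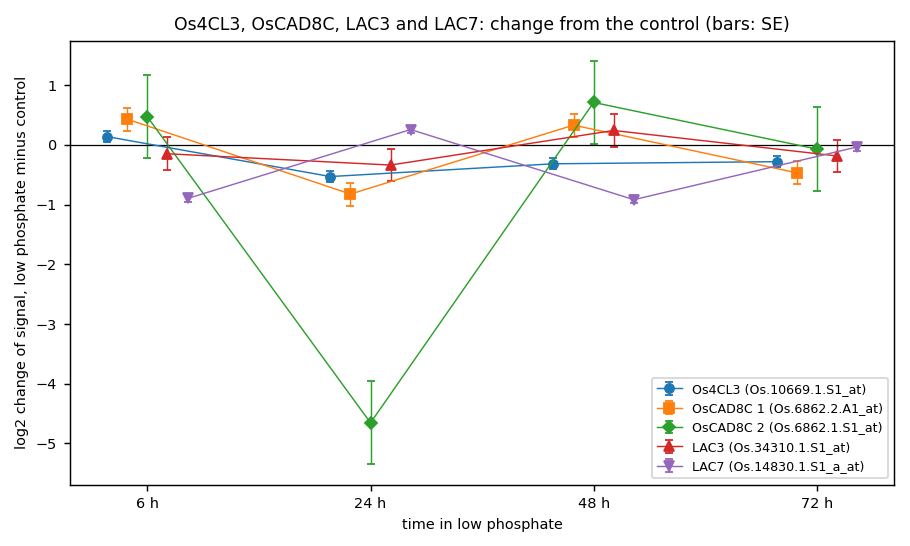
Log2 change of signal, low phosphate minus control, after 6, 24, 48 and 72 h for the probe sets of Os4CL3, OsCAD8C, LAC3 and LAC7; bars are SE, n = 2 arrays per group. LAC7 is at -0.90, 0.26, -0.92 and -0.03; the fitted value of OsCAD8C 2 after 24 h rests on signals under the filter level, where the fall is at least 1.23.

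Between times in low phosphate, the members moved most often from 6 to 24 h. Against 6 h, 6 of the 10 were higher and 3 lower after 24 h, where 39.3% of all probe sets passed (19.5% higher, 19.8% lower). After 48 h 2 were higher and 3 lower than after 6 h (30.4% of all, 16.8% higher and 13.6% lower), and after 72 h 1 was higher and 4 lower (35.1% of all, 17.5% higher and 17.6% lower). Against 24 h, 2 were higher and 4 lower after 48 h (35.8% of all, 20.5% higher and 15.3% lower), and 2 were higher and 4 lower after 72 h (43.3% of all, 23.1% higher and 20.3% lower). Against 48 h, 3 were higher and 2 lower after 72 h (31.2% of all, 14.4% higher and 16.9% lower). With 9 of 10 against 39.3%, the step from 6 to 24 h lies furthest from its background. But 5 of these 9 are probe sets of PAL and 2 of OsCAD8C, which are not independent of each other. As the genes were chosen with earlier results of these data known, that distance is a description only.

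Both arrays of the low-phosphate group lay on 1 side of both control arrays in 9 of the 10 probe sets after 6, 24 and 48 h and in 7 after 72 h. Over all probe sets tested, groups did not overlap in 67.2%, 66%, 66.6% and 70.8% at these times. A ratio of mean signals beyond 2-fold, the rule of the series text, was met by 1 of the 10 at each time, where 17.2%, 21%, 14.1% and 22.2% of all met it. That probe set was PAL 4 after 6, 48 and 72 h and OsCAD8C 2 after 24 h. The group means of LAC7 spanned 1.18 on the log2 scale, more than 52.3% of all probe sets tested, and those of Os4CL3 spanned 0.67, more than 19.8%.

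The other genes of the pathway were taken from name lists, with the brightest probe set of each gene. Their counts stand against the same shares of all probe sets tested: 19%, 20.6%, 19.4% and 21.9% higher and 17.2%, 19.2%, 12.5% and 17.6% lower after 6, 24, 48 and 72 h. With so few genes in a list, 1 gene moves its share by more than 10 percentage points. Of 78 called changes of the genes named from the lists, 51 stayed called under all alternatives other than the 2-fold rule. Of the 4 other entry enzymes tested, 4 rose after 6 h and 3 fell after 24 h. After 48 h 2 rose while 2 fell, and after 72 h 1 rose while 2 fell. Os4CL1, another ligase, rose by 0.37 after 6 h, fell by 0.26 after 24 h, and rose by 0.84 after 48 h and 0.76 after 72 h. Its fall after 24 h ended without the first control array (adjusted p = 0.141), without the second 24 h array (0.0886) and with only the 2 groups (0.11), and its rise after 72 h was 0.26 with arrays centred on their medians (adjusted p = 0.0615). Os4CL5 had changes of 0.91, -0.88, -1.15 and -0.60 at the 4 times, all of which passed. Os4CL4 rose by 0.28 after 6 h, and its changes of -0.26 after 48 h and -0.23 after 72 h also passed. All 3 calls of Os4CL4 ended with no intensity trend (adjusted p = 0.0584, 0.0813 and 0.101) and without the first control array (0.0546, 0.0502 and 0.0718), and those after 6 and 48 h with median centring (0.0627 and 0.0691). Some also ended without another single array: that after 6 h without the second 6 h array (0.0512), that after 48 h without the second control (0.0828) or first 48 h array (0.144), and that after 72 h without the second control (0.117) or either 72 h array (0.0878 and 0.0886). PAL06 had 1638 and 1838 after 6 h and 765 and 927 after 24 h, against 1074 and 1228 in the control. It rose by 0.60 ± 0.11 after 6 h (adjusted p = 0.000835) and fell by 0.45 ± 0.11 after 24 h (adjusted p = 0.00514), a fall that ended without the second control array (adjusted p = 0.0578). PAL 1 fell after 6 h and its change of 0.11 after 24 h did not pass. With quantile normalization that fall of PAL 1 ended and its change after 24 h passed as a rise (0.26, adjusted p = 0.00261).

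Of the 9 other monolignol enzymes tested, 4 rose and 1 fell after 6 h, while 3 rose and 2 fell after 24 h. After 48 h there were 2 rises and 3 falls, and after 72 h 3 rises and 2 falls. OsCAD2, the dehydrogenase whose loss gives the gold hull phenotype, had 13861 and 13897 after 6 h against 10210 and 9282 in the control. It rose by 0.51 after 6 h, fell by 0.29 after 48 h and rose by 0.35 after 72 h, where centring on the medians gave -0.15 (adjusted p = 0.159). The fall of OsCAD2 after 48 h was -0.12 with quantile normalization (adjusted p = 0.112). OsCAD3 rose at all 4 times, by 1.96 ± 0.10 after 6 h (adjusted p = 2.99e-08), 1.75 after 24 h, 0.43 after 48 h and 1.68 after 72 h; it was named after its values were seen. Its rise after 48 h ended with quantile normalization (0.28, adjusted p = 0.0607), without the second control array (0.0551) and without the second 48 h array (0.0682). The CAD8 family neighbour OsCAD8A, also named afterwards, fell by 0.93 after 24 h, the time at which both OsCAD8C probe sets fell, and fell by 0.48 after 72 h. The call of OsCAD8A after 72 h ended without either control array (adjusted p = 0.0972 and 0.119), without the second 72 h array (-0.26, adjusted p = 0.272) and with no intensity trend (0.11). The hydroxycinnamoyltransferase genes OsHCT1 and OsHCT2 rose by 0.41 and 0.71 after 6 h, and their changes of -0.34 and -0.24 after 48 h passed as falls. The fall of OsHCT2 ended without the second control array (-0.15, adjusted p = 0.227), without either 48 h array (0.1 and 0.101) and with no intensity trend (0.13).

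Of the other laccases, 7 had a probe set and 5 were bright enough to be tested. LAC24, LAC19 and LAC15 fell at all 4 times, and no other fall passed. LAC19 had 281 and 260 after 6 h, 254 and 189 after 24 h, 758 and 723 after 48 h, and 343 and 348 after 72 h, against 1904 and 1913 in the control. It fell by 2.82 ± 0.14 after 6 h (adjusted p = 2.32e-08), and its changes after 24, 48 and 72 h were -3.12, -1.37 and -2.47. LAC15 fell by 2.71 ± 0.21 after 6 h (adjusted p = 8.93e-07), and its changes after 24, 48 and 72 h were -2.04, -1.19 and -1.81. LAC24 had 1514 and 1568 after 6 h, 3201 and 3195 after 24 h, 1516 and 1371 after 48 h, and 2375 and 2603 after 72 h, against 4751 and 4677 in the control. Like LAC7, LAC24 was lowest after 6 and 48 h and higher after 24 and 72 h, but unlike LAC7 all its arrays in low phosphate lay below the control. Its changes after 6, 24, 48 and 72 h were -1.61, -0.56, -1.71 and -0.92, with an SE of 0.07. LAC10 rose by 1.91 ± 0.47 after 6 h (adjusted p = 0.00689), a call that ended without the second control array (adjusted p = 0.0567) or the first 6 h array (adjusted p = 0.0725).

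**Figure D5:**
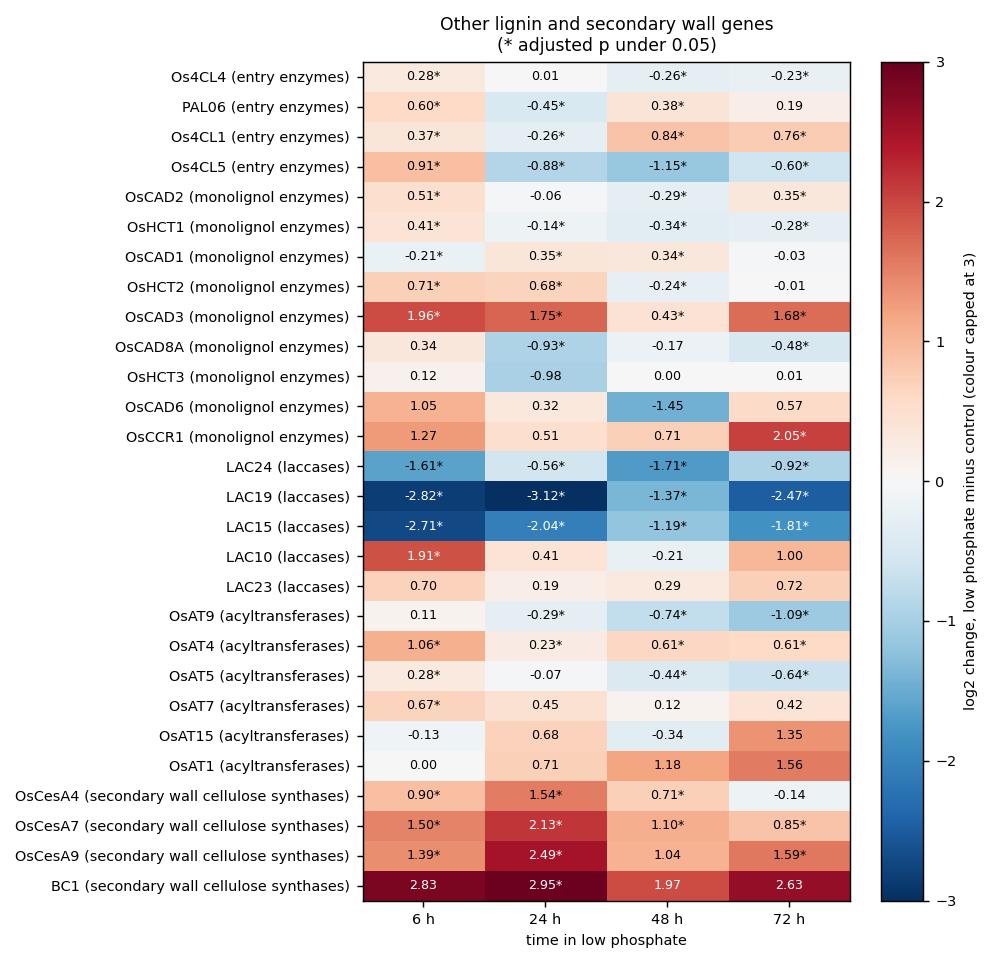
Log2 change, low phosphate minus control, after 6, 24, 48 and 72 h for the tested genes of 5 name lists other than the 5 genes described (1 probe set per gene, colour capped at 3, an asterisk marks adjusted p under 0.05). LAC24, LAC19 and LAC15 are lower at all 4 times, OsCAD3 is higher at all 4, and the 24 h value of BC1 is a fitted one whose bound is at least 1.08.

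Cellulose synthases of the secondary wall were counted in the same way. Of the 4 tested genes of their list, 3 rose after 6 h, 4 after 24 h, 2 after 48 h and 2 after 72 h, and 0 fell, where 19%, 20.6%, 19.4% and 21.9% of all probe sets were higher at these times. OsCesA7, a subunit of the secondary wall cellulose synthase, had 339 and 306 after 24 h against 57.5 and 93.8 in the control, and rose by 2.13 ± 0.29 (adjusted p = 8.75e-05). OsCesA9 rose by 2.49 ± 0.39 and OsCesA4 by 1.54 ± 0.22 at that time. The values of OsCesA4 depend on the probe set: a second, dimmer one rose by 3.78 ± 0.37 after 24 h and by 2.30 ± 0.37 after 72 h (adjusted p = 0.000348), where the brightest changed by -0.14 and did not pass (adjusted p = 0.652). The rises of OsCesA7, OsCesA9 and the brightest OsCesA4 probe set after 24 h stayed called under each alternative run, but several at other times did not. The rise of OsCesA7 after 72 h (0.85) was 0.61 with quantile normalization (adjusted p = 0.13), 0.35 with median centring (0.367), 0.50 without the first control array (0.258) and 0.62 without the second 72 h array (0.204). It also ended without either 6 h array (0.0532 and 0.0542), and the rise of OsCesA7 after 48 h ended without the first control (0.107) or first 48 h array (0.126). The rise of OsCesA4 after 48 h ended with quantile normalization (0.151) and without any 1 of the control and 48 h arrays (0.0534 to 0.199), and that after 6 h without the second 6 h array (0.0507). The rise of OsCesA9 after 6 h ended without the second control (0.0854) or second 6 h array (0.119), and that after 72 h without the first 72 h array (0.0605). BC1, a COBRA-like protein of cellulose assembly, had 41.0 and 62.2 after 24 h against 22.4 and 1.9 in the control, at least 1.08 higher on the log2 scale (adjusted p = 0.0481). That call ended when any of 9 of the 10 arrays was left out, and without the second control array the fitted change was 1.17 (adjusted p = 0.314).

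Of the 6 tested acyltransferases of the wall, which pass hydroxycinnamate groups to wall polymers or monolignols, 3 rose and 0 fell after 6 h (19% of all higher), and after 24 h 1 rose and 1 fell (20.6% higher, 19.2% lower). After 48 h 1 rose and 2 fell (19.4% higher, 12.5% lower), as after 72 h (21.9% higher, 17.6% lower). OsAT4 rose by 1.06 after 6 h, and OsAT9 fell by 0.74 after 48 h and 1.09 after 72 h. A second probe set of OsAT9 fell by 1.77 after 6 h (adjusted p = 0.0173), and its changes at the other times did not pass. Of 2 genes of the flavonoid branch, which draws on the same CoA esters, the chalcone isomerase gene Cfi rose by 0.61 after 6 h, fell by 0.88 after 24 h and rose by 0.60 after 48 h, and no change passed after 72 h. The brightest probe set of OsCHS1, chalcone synthase, had no change that passed, but its other probe sets disagreed: 1 rose by 3.09 after 24 h (adjusted p = 0.0178) and by 3.06 after 72 h (adjusted p = 0.0196), and another fell by 1.84 after 24 h (adjusted p = 0.0323). The list of regulators matched 2 genes, OsNAC5 and a MYB gene known as OsMYBS3, a factor of the sugar response that shares the listed name MYB30, so it says little of lignin regulators. The list of dirigent proteins matched 0 genes.

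By Pearson correlation of log2 signal over the 10 arrays, among the primary probe sets of 2243 genes with a published name, those most like each gene were as follows. For LAC7 these were OsbZIP52 (r = 0.979), OsC3H20 (0.971) and OsHAK7 (0.968). For the brightest PAL probe set these were AOS (r = 0.958), the first enzyme of the jasmonate branch, TCTP (0.956) and OsMT-1 (0.950). For Os4CL3 these were OsPP2C29 (r = 0.957), OsGNA1 (0.930) and OsHsp18.0 (0.923). For the brighter OsCAD8C probe set these were CBP20 (r = 0.970), OsCiTrx (0.940) and OsMET1-2 (0.939), and for LAC3 OsDTS2 (r = 0.903), OsrbohB (0.900) and GRXC7 (0.851). The arrays share the 5 groups, and so few points give high values among this many genes.

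Among the 5 genes themselves, the primary probe sets did not move as 1 group. LAC7 and the brightest PAL probe set correlated over the 10 arrays at r = 0.792, LAC7 and OsCAD8C at -0.841, and LAC7 and LAC3 at -0.559. Os4CL3 correlated with OsCAD8C at 0.678 and with PAL at -0.149. After 24 h, LAC7 rose while Os4CL3 and OsCAD8C fell, and after 48 h LAC7, Os4CL3 and PAL 1 fell.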

How the data were processed

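The authors deposited a linear signal intensity for each probe set of each array. The software was GCOS and MAS5, per the submitters' processing notes, with versions not given in the sources used here. With 2% cut from both tails, array means were all 500.1, so signals had been scaled to a common target. Detection calls, scanner files and probe sequences were not used here, and a MAS5 signal is noisy when low. Control genes with a 3′ or 5′ end under a control signal of 100 were left out, a limit set after the values were seen.

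Groups and replicate numbers came from the sample titles. Per the labels, RNA came from independent plants. No offset was added before log2. Probe sets that were not Affymetrix controls were tested above the 40th percentile of mean log2 signal (4.58, a signal of 23.9). Group means were fitted to all 10 arrays with limma 3.58.1 under R 4.3.3 (lmFit, then eBayes with an intensity trend; 5 residual and 6.5 prior degrees of freedom). Tests were two-sided. The script was tested on simulated data. The precision is limited by 2 arrays per group.

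A gene's primary probe set is the one with the highest mean. Where both arrays of the dimmer group were under 23.9, a change is given as a bound. At most 4 genes per list were named, those with the highest mean signal, except where stated. The members and lists were chosen with earlier results of these data known. Names came from the platform annotation and a RefSeq gene table of 39387 genes. The test between probe sets and the bounds were chosen after seeing the data. The alternatives were the filter, 2 scalings, an offset of 16, no trend, only the groups compared, a replicate block, the 2-fold rule and each array left out.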

Additional observations from a re-analysis of the deposited data

Results flagged for a closer look

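For 9 of the 10 probe sets the difference from the control was not the same at all times in low phosphate, by a direct contrast of 2 of the times in the limma fit. The control cancels in such a contrast. Among all probe sets tested, 30.4% to 43.3% passed in a given pair of times, and the F-test over the 5 groups called 61.4%. The share of all that passed in any of the 6 pairs was not counted. The count of 9 thus has no background of its own and is a description only. It includes the 5 probe sets of PAL and the 2 of OsCAD8C, and probe sets of the same gene are not independent of each other. The pair of times given for each probe set is that with the smallest adjusted p of its 6 pairs among those that passed, so its size is the choice of a largest difference.

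LAC7 was 1.16 higher after 24 h than after 6 h (adjusted p = 3.9e-08). For PAL, PAL 4 had a difference of -4.49 between 72 h and 24 h (adjusted p = 2.19e-08), PAL 2 of -0.70 between 48 h and 24 h (adjusted p = 2.88e-07) and PAL 1 of -0.56 between 48 h and 24 h (adjusted p = 1.13e-05). PAL 3 was 0.30 higher after 48 h than after 6 h (adjusted p = 0.0117), and PAL 5 was 0.67 higher after 24 h than after 6 h (adjusted p = 0.0309). The call of PAL 3 ended with no intensity trend (adjusted p = 0.111) and without the first 6 h array (0.24) or the first 48 h array (0.27). That of PAL 5 ended with only the 2 groups (adjusted p = 0.0565) and without the first 6 h array (0.54) or the second 24 h array (0.53). Os4CL3 had a difference of -0.67 between 24 h and 6 h (adjusted p = 7.07e-05). OsCAD8C had one of -1.25 between 24 h and 6 h for OsCAD8C 1 (adjusted p = 0.000223) and one of 5.37 between 48 h and 24 h for OsCAD8C 2 (adjusted p = 6.71e-05), where the bound against the filter level is at least 1.94. No pair of times passed for LAC3. For PAL 5 the F-test over the 5 groups did not pass (adjusted p = 0.129), so its place here rests on the best of 6 pairs with no allowance for that choice.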

How the results depend on the processing

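Of 40 changes of the 10 probe sets from the control, 20 were called. Of these, 3 stayed called under every alternative, all 3 of PAL 4, and 8 did so with the 2-fold rule left out. Changes of sign without a call on either side occurred 9 times for the 10 probe sets against the control, 18 times for the other pairs and 22 times for the named genes of the lists.

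The count of the 10 probe sets called after 6 h (4 in the fit reported) was 2 with quantile normalization, 2 with no intensity trend and 1 with the 2-fold rule. After 24 h (6) it was 3 with no trend and 1 with the 2-fold rule, and after 48 h (6) it was 1 with the 2-fold rule. After 72 h (4) it was 7 with median centring, 2 with no trend and 1 with the 2-fold rule. Alternatives that moved a count less are not listed. After 48 h, for example, the calls of PAL 3 and Os4CL3 ended with no trend and that of PAL 1 with quantile normalization. Leaving out each array gave 2 to 4, 5 to 6, 5 to 6 and 2 to 5 after 6, 24, 48 and 72 h. Over all probe sets, 12432, 13673, 10960 and 13550 were called at these times, with 9842 to 12951, 11614 to 13815, 7837 to 11624 and 11068 to 14273 when an array was left out, and 5908, 7203, 4846 and 7629 met the 2-fold rule. The F-test called 21078 (19506 to 21019 with an array left out).

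Quantile normalization turned the 6 h falls of PAL 2 (0.063) and PAL 1 (0.024). Median centring, which lowers the 72 h arrays most, turned 72 h against the control for PAL 3 (-0.31), PAL06 (-0.30), OsCAD2 (-0.15) and OsMYBS3 (-0.22). It also turned 72 h against 48 h for PAL 2 (-0.33), PAL 1 (-0.31) and Os4CL3 (-0.48), 72 h against 6 h for PAL 3 (-0.35), and 72 h against 24 h for Os4CL3 (-0.15). The cause of the array differences was not tested.

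Replicate numbers did not pair the samples: deviations of same-numbered arrays correlated between -0.0086 and 0.0165. With the replicate block 4, 6, 6 and 4 of the 10 probe sets were called after 6, 24, 48 and 72 h, the same counts as without it, and the difference between PAL 4 and PAL 1 after 48 h had adjusted p = 0.0574. Some small changes of bright probe sets, such as the falls of PAL 1, ended under another scaling. Others, such as the fall of PAL 2 after 48 h, did not. There were 2 arrays per group and no phosphate-sufficient group at the later times, and signals under 23.9 give bounds only.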
